A study of Homo sapiens with 12 samples.

Results

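The 7 human sirtuin genes, SIRT1 to SIRT7, were followed in 501Mel melanoma cells over 6 treatments. They were taken by gene symbol from the 56638 gene rows of the deposited count table, and all 7 were among the 16080 genes that passed the filter on low counts. 501Mel cells are an established line from a human melanoma, so all values describe 1 line. The cells received for 48 h either the vehicle DMSO, 1 μM Vem (vemurafenib, a BRAF inhibitor or BRAFi), 10 nM TCDD (an agonist of the aryl hydrocarbon receptor, AhR), 5 μM RSV (resveratrol), 5 μM RSV with 1 μM Vem (RSV+Vem) or 5 μM RSV with TCDD (RSV+TCDD). For RSV+TCDD the label of the libraries gives 1 nM TCDD, whereas the treatment protocol gives 10 nM, so the dose in that group is uncertain. Each group had 2 libraries, 12 in all. Nothing in the labels says that they came from separate cultures, so the p-values measure the spread between these libraries.

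Sirtuins are NAD+-dependent enzymes that remove acetyl or longer acyl groups from lysines of histones and other proteins, and they release nicotinamide, which inhibits them. Mammals carry 7 of them, which differ in where they sit in the cell: SIRT1, SIRT6 and SIRT7 are mainly nuclear, SIRT2 is mainly cytosolic, and SIRT3, SIRT4 and SIRT5 are mitochondrial. RSV, a plant polyphenol, is widely known as an activator of SIRT1 and also as an antagonist of AhR, which raises the question of whether mRNA levels of the family moved when RSV was added alone or on top of Vem or TCDD. The counts measure mRNA and not enzyme activity, and in such bulk samples fewer cells with a transcript and less transcript per cell cannot be told apart.

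The upstream sequences of SIRT1 and SIRT2 are shown because these were the family members whose response to RSV differed between cells with and without Vem, and because the treatments include AhR ligands. They are the 250 bases before the start site in RefSeq on GRCh38.p14, a different build from the hg19 used for the counts. Capitals mark the core of the element bound by AhR and ARNT (GCGTG, or CACGC on the other strand) and the E-box CACGTG, searched on both strands. The windows are chr10:67884406-67884655 on the plus strand for SIRT1 and chr19:38899619-38899868 on the minus strand for SIRT2.
SIRT1: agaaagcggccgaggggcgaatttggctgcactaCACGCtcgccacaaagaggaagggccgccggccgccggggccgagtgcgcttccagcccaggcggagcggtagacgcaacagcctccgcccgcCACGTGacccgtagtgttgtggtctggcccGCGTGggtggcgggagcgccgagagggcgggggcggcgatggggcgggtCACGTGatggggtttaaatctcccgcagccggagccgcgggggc
SIRT2: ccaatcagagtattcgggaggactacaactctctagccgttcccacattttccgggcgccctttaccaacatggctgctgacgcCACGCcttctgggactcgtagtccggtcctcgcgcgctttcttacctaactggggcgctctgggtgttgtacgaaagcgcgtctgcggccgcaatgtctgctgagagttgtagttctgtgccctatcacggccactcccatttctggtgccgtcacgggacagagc
The SIRT1 window held GCGTG at 2 positions, 216 and 93 bases before the start site, and CACGTG at 2 positions, 123 and 44 bases before it. The SIRT2 window held GCGTG once, 166 bases before the start site. An entry was found for 6 of the 7 genes, SIRT7 being the exception, and of the 9 SIRT entries 3 held GCGTG and 1 held CACGTG. Over all 35116 promoter entries of the same length, 32.2% held GCGTG and 6.34% held CACGTG, so a match to GCGTG is common, and a match is a description of letters and not a binding site.

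Counts on genes ranged from 8378655 to 25076925 per library, and the lowest total was that of RSV+Vem replicate 2. RIN values, a measure of RNA integrity, were between 8.6 and 9.7, and the values 8.6 and 8.7 were those of the RSV+Vem libraries. The vehicle libraries differed more from each other than those of any other group, at 23.4 chi-square units per degree of freedom against 4.8 with TCDD and 13.4 with RSV, a measure that also grows with depth. The TCDD and Vem labels were reflected in known response genes. CYP1A1, the classical AhR target, was 143 ± 17 CPM (SD, n = 2) with TCDD and 23.3 ± 0.305 with vehicle. DUSP6, a target of the MAPK pathway, was 1.25 ± 0.789 CPM with Vem and 104 ± 8.63 with vehicle. RSV alone had CYP1A1 at 68.2 ± 1.08 CPM, above vehicle, and RSV+TCDD at 42 ± 0.32, below TCDD, although the TCDD dose of RSV+TCDD is uncertain. DUSP6 was at 173 ± 25.2 CPM with RSV and at 13.2 ± 1.8 with RSV+Vem, above Vem alone and below vehicle. All 7 melanocytic markers were present, MITF at 457 to 1260 CPM and PMEL at 5690 to 22300 CPM, whereas 9 of the 10 markers of keratinocytes, fibroblasts, immune and endothelial cells stayed at or below 0.532 CPM and the fibroblast gene COL1A1 reached 2.59 CPM.

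Levels below are CPM, gene counts divided by the TMM-scaled library size. Among the nuclear members, SIRT1, a deacetylase of histones and transcription factors, was at 25.7 and 27.6 CPM in the vehicle libraries, 20.3 and 23.6 with Vem and 18.9 and 19 with TCDD. The RSV libraries held 33.7 and 33 CPM, RSV+Vem 41.9 and 48, and RSV+TCDD 28.1 and 31.4. The 6 groups did not overlap: all 6 libraries with RSV lay above all 6 without it, RSV+Vem was highest and TCDD lowest, and the highest group mean was 2.37 times the lowest. SIRT7, which removes acetyl groups from histone H3 at target promoters and acts in the nucleolus, showed a similar order. It was at 12.6 and 15.3 CPM with vehicle, 16.8 and 15.5 with Vem, 10.9 and 11 with TCDD, 27.1 and 21.2 with RSV, 28 and 23.8 with RSV+Vem and 22.6 and 20.1 with RSV+TCDD. Again every library with RSV exceeded every library without it, while the RSV groups overlapped their neighbours, RSV+Vem with RSV and RSV with RSV+TCDD.

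SIRT6, a chromatin deacetylase with roles in DNA repair and glucose metabolism, was nearly level. Its libraries held 17 and 18.9 CPM with vehicle, 20.7 and 21.6 with Vem, 15.7 and 19.4 with TCDD, 22.6 and 17.1 with RSV, 23.8 and 18.8 with RSV+Vem and 20.8 and 18.4 with RSV+TCDD. Each group overlapped its neighbour in the order of means, and the highest group mean was 1.21 times the lowest. The cytosolic SIRT2, a deacetylase of tubulin and of metabolic enzymes, was the most abundant member. It was at 54.6 and 56.4 CPM with vehicle, 107 and 122 with Vem, 60.9 and 62.2 with TCDD, 59.5 and 54.4 with RSV, 83.7 and 79.2 with RSV+Vem and 63.8 and 59.1 with RSV+TCDD. Vem stood above RSV+Vem, RSV+Vem stood above the rest, and the other four groups formed a chain of overlapping values.

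Of the mitochondrial members, SIRT5, which removes succinyl and malonyl groups, was highest in the groups with Vem, as was SIRT2. Its levels were 24.8 and 22.1 CPM with vehicle, 41 and 41.8 with Vem, 24.1 and 27.3 with TCDD, 26.4 and 26.6 with RSV, 37.8 and 35.5 with RSV+Vem and 27.1 and 27.3 with RSV+TCDD. The Vem groups were clear of the others and of each other. SIRT3, the main deacetylase of the mitochondrial matrix, was at 13.5 and 12.4 CPM with vehicle, 18.8 and 18.6 with Vem, 14.1 and 13.3 with TCDD, 15.7 and 14 with RSV, 19.2 and 15.6 with RSV+Vem and 14.9 and 14.6 with RSV+TCDD. Vem and RSV+Vem held the highest means and overlapped, and the libraries of RSV+Vem overlapped those of RSV. SIRT4, a lipoamidase and ADP-ribosyltransferase that restrains glutamine use, was the rarest member, with 19 to 63 counts per library. Its vehicle libraries held 1.97 and 0.93 CPM, Vem 2.29 and 2.76, TCDD 2.34 and 1.4, RSV 2.35 and 2.26, RSV+Vem 1.59 and 2.25 and RSV+TCDD 3.19 and 2.59. Its vehicle libraries stood far apart, at 39 and 23 counts, TCDD and RSV+Vem overlapped them, and Vem, RSV and RSV+TCDD lay above them.

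**Figure D1:**
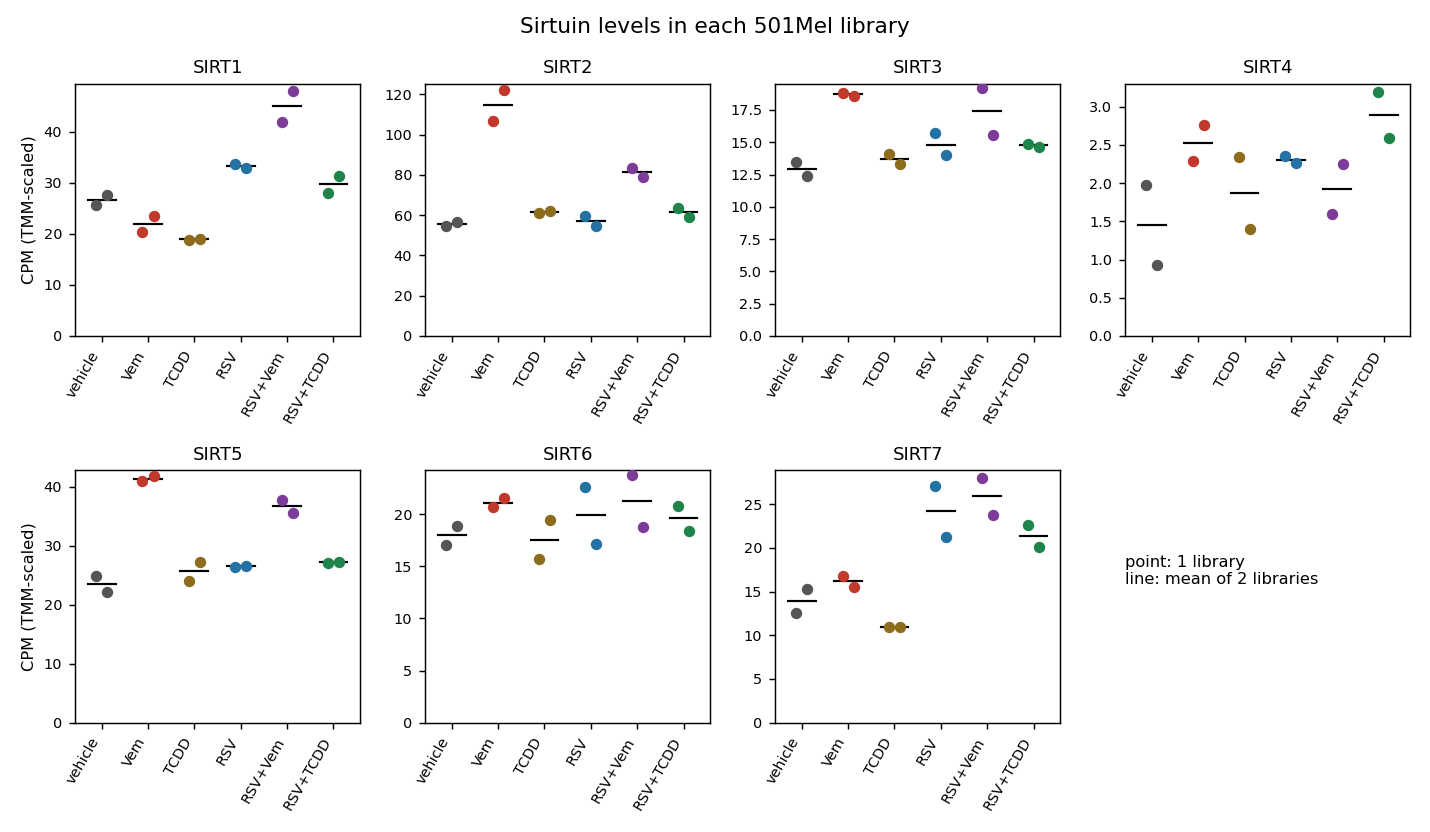
TMM-scaled CPM (y axis, from 0, a scale of its own per gene) of each sirtuin gene in the 12 libraries, by treatment group; points are libraries and lines the mean of 2 libraries. SIRT1 and SIRT7 are highest in the 3 groups with RSV, SIRT2 and SIRT5 in the 2 groups with Vem, and SIRT6 is nearly level.

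In a test of any difference among the 6 groups (edgeR quasi-likelihood F test, Benjamini-Hochberg adjustment over all genes, called at an adjusted p below 0.05), 5 of the 7 genes were called, as were 77.5% of all genes tested. SIRT2 (adjusted p = 1.03e-07), SIRT1 (7.69e-07), SIRT7 (4.22e-06), SIRT5 (1.34e-05) and SIRT3 (0.0121) passed. SIRT4 (0.0904) and SIRT6 (0.393) did not pass. The number called among the 7 is thus near the share of all genes.

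Levels of different genes were compared per kilobase of merged exons. In vehicle cells SIRT2 was at 8.94 ± 0.205 CPM per kb (SD, n = 2), SIRT6 at 6.53 ± 0.489, SIRT1 at 5.84 ± 0.294, SIRT3 at 2.33 ± 0.14, SIRT7 at 2.27 ± 0.311, SIRT5 at 2.08 ± 0.169 and SIRT4 at 1.19 ± 0.602. The gap between SIRT6 and SIRT1 was larger than either SD, whereas SIRT3, SIRT7 and SIRT5 differed by less than the largest of their SDs. With RSV+Vem the level of SIRT1 per kb, 9.85 ± 0.945, exceeded that of SIRT6, 7.75 ± 1.29, and SIRT2 stayed on top at 13.1 ± 0.513. The length of the longest transcript in place of merged exons kept SIRT2, SIRT6 and SIRT1 as the first 3 in vehicle cells, but with RSV+Vem it turned the order of the pair, with SIRT6 at 13.3 and SIRT1 at 10.9 CPM per kb. The order of SIRT1 and SIRT6 with RSV+Vem thus depended on the length used.

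The genes lie apart on the genome. On GRCh37, the build of the counts, SIRT1 spans chr10:69644414-69678147 on the plus strand and SIRT7 chr17:79869815-79879199 on the minus strand. SIRT2 spans chr19:39369195-39390502 and SIRT6 chr19:4174106-4182563, both on the minus strand. SIRT3 spans chr11:215030-236931 on the minus strand, SIRT4 chr12:120740119-120751052 and SIRT5 chr6:13574459-13615390, the last pair on the plus strand. Shared exon bases were few: 105 bases of SIRT7 (1.71% of its exon bases) lie in MAFG on the same strand, 84 of SIRT3 in RIC8A and 40 of SIRT2 in NFKBIB on the opposite strand, and 1058 bases of SIRT5 (9.37%) lie opposite a long noncoding RNA whose symbol is not in the count table. The counting was stranded according to the methods. Counts were 693 to 1677 per library for MAFG, beside 150 to 526 for SIRT7. They were 919 to 2385 for RIC8A and 268 to 744 for NFKBIB, and the RNA opposite SIRT5 has no count here.

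Changes below are relative to the library size scaled by TMM factors, which ran from 0.89 to 1.08. When libraries were scaled instead to the ERCC spike-ins, RNAs of known amount added to each sample, the median of all genes shifted by -0.172 with RSV, by -0.68 with Vem, by -0.512 with TCDD and by -1.20 with RSV+TCDD against vehicle on the log2 scale. Spike-in counts relative to gene counts, on the scale of CPM, were 389 and 904 in the RSV+Vem libraries and 631 and 937 in the RSV+TCDD libraries, against 316 and 310 with vehicle. With that scaling SIRT7 was at log2 0.64 and SIRT1 at 0.15 with RSV, and SIRT2 at 0.39, SIRT5 at 0.17 and SIRT3 at -0.12 with Vem, and none of these passed the threshold. A rise per amount of spike-in was thus not shown for these genes. Among all 16080 genes, 256 were called higher and 113 lower with RSV under that scaling, and 195 and 3620 with Vem. In RSV+TCDD against vehicle, SIRT1, SIRT2, SIRT3, SIRT5 and SIRT6 were called lower with spike-in scaling, at log2 -0.978 to -1.05, less than the shift of all genes. In that comparison 9968 of the 16080 genes were called lower and 194 higher.

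RSV raised SIRT7 and, with a smaller effect, SIRT1. Relative to vehicle, 2 of the 7 sirtuins were called higher and 0 lower, against 20.5% and 20.2% of all genes. SIRT7 rose 1.73-fold (log2 0.79 ± 0.15 SE, adjusted p = 0.000415, edgeR quasi-likelihood). SIRT1 rose 1.25-fold (log2 0.32 ± 0.12, adjusted p = 0.0399). The SIRT1 call with RSV alone was at the margin: leaving out any 1 of the 4 libraries compared ended it, with log2 values between 0.26 (without vehicle replicate 1) and 0.37 (without vehicle replicate 2), and DESeq2 gave an adjusted p of 0.0575. The other five were not called. Their log2 values were 0.036 for SIRT2 (95% confidence interval -0.18 to 0.25), 0.20 for SIRT3 (-0.090 to 0.49), 0.70 for SIRT4 (-0.012 to 1.41), 0.18 for SIRT5 (-0.064 to 0.42) and 0.14 for SIRT6 (-0.19 to 0.47), so rises of up to these upper limits are within the error.

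On top of Vem, RSV shifted 3 sirtuins. SIRT1 rose 2.04-fold (log2 1.03 ± 0.12 SE, adjusted p = 4.28e-06) and SIRT7 1.61-fold (log2 0.69 ± 0.15, adjusted p = 0.00166), whereas SIRT2 fell to 0.712 of its level with Vem alone (log2 -0.49 ± 0.10, adjusted p = 0.000826). These 2 higher and 1 lower calls stand beside 19.1% and 18.7% of all genes. On top of TCDD, 2 sirtuins were called higher and 0 lower, beside 18.6% and 19.1% of all genes. If the label of 1 nM holds for RSV+TCDD, this comparison also differs in TCDD dose from the 10 nM of TCDD alone. The RSV effect and such a dose difference cannot be told apart here. SIRT7 rose 1.95-fold (log2 0.96 ± 0.15, adjusted p = 0.000106) and SIRT1 1.57-fold (log2 0.65 ± 0.12, adjusted p = 0.000499). Calls on both backgrounds held when any 1 of the libraries compared was left out, and with spike-in scaling none passed and SIRT1 on top of TCDD was at -0.052. SIRT7 was thus called higher with RSV in each of the 3 settings, at 1.61- to 1.95-fold, and its spike-in scaled values, not called, were 0.639, 0.683 and 0.295. Spike-in scaling called 334 of the 16080 genes higher and 55 lower on top of Vem, and 160 and 1752 on top of TCDD.

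**Figure D2:**
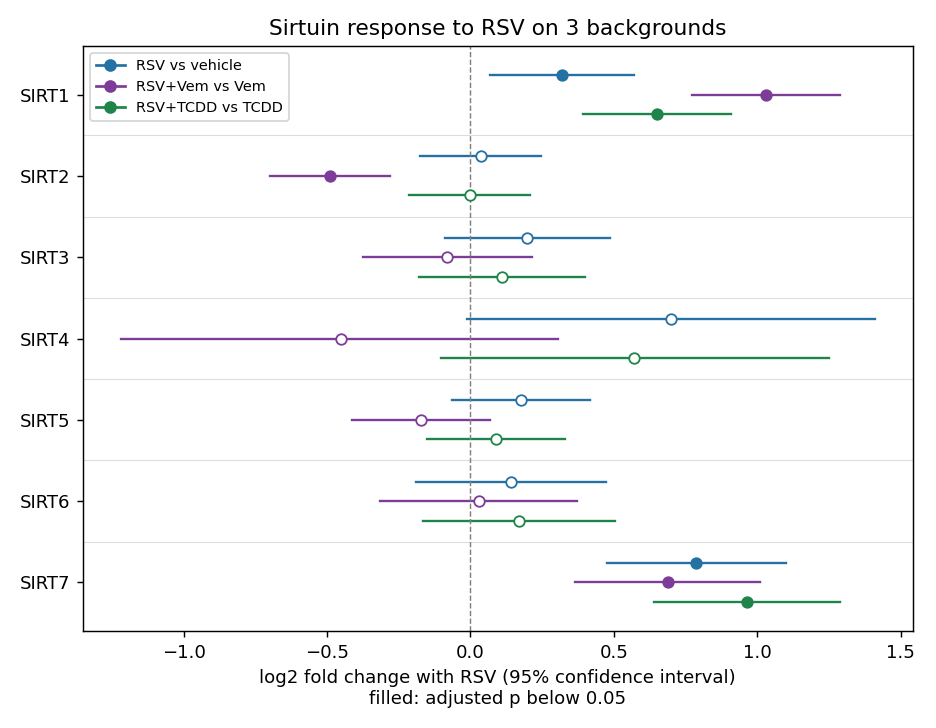
Log2 fold change with RSV (x axis) for each sirtuin gene against vehicle, on top of Vem and on top of TCDD; bars are 95% confidence intervals and filled points have an adjusted p below 0.05. SIRT1 and SIRT7 lie right of 0 in all 3 comparisons (with spike-in scaling, SIRT1 on top of TCDD is at -0.052), and the filled point of SIRT2 lies left of 0, at -0.49 on top of Vem. The TCDD dose of RSV+TCDD is uncertain.

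Other measures moved with RSV in the same libraries. All 7 melanocytic markers were called lower with RSV against vehicle, on top of Vem and on top of TCDD. The shares of all genes called lower were 20.2%, 18.7% and 19.1%. With spike-in scaling 1 of the 7 was called lower with RSV and 2 on top of Vem, and 0 higher. Beside them, 113 and 55 of the 16080 genes were called lower with that scaling. The summed level of the 10 markers of other cell types was 2.02 to 3.13 CPM in the 6 libraries with RSV and 0.955 to 2.07 CPM in the 6 without, mostly from COL1A1. Of the endothelial markers, PECAM1 was at 0 in every library and CDH5 was at 0 to 0.532 CPM, 10 counts at most. PTPRC and CD3E, markers of immune cells, were at or below 0.307 CPM. The part of these shifts, and of the lower RIN of RSV+Vem, in the sirtuin values was not tested.

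Vem raised SIRT2, SIRT5 and SIRT3. Relative to vehicle, 3 of the 7 sirtuins were called higher and 0 lower, beside 25.5% and 26.9% of all genes. SIRT2 rose 2.06-fold (log2 1.04 ± 0.10 SE, adjusted p = 9.66e-08, edgeR quasi-likelihood), SIRT5 1.77-fold (log2 0.82 ± 0.11, adjusted p = 8.5e-06) and SIRT3 1.45-fold (log2 0.53 ± 0.14, adjusted p = 0.00341). All 3 calls held without any 1 of the libraries, and SIRT3 turned to -0.12 with spike-in scaling. SIRT1 was at log2 -0.29 ± 0.12 (adjusted p = 0.0604) and SIRT4 at 0.83 ± 0.35 (adjusted p = 0.0526), both just outside the threshold. The SIRT4 value was 1.43 without vehicle replicate 1 and 0.37 without vehicle replicate 2, so 1 library decided it. SIRT6 (log2 0.23, interval -0.10 to 0.57) and SIRT7 (0.21, interval -0.11 to 0.54) were not called. In the same comparison 6 of the 7 melanocytic markers were called higher, with a median log2 value of 0.39 that was -0.27, with 0 called, under spike-in scaling. COL1A1 fell (log2 -1.17 ± 0.39, adjusted p = 0.0138), and the summed level of the 10 markers of other cell types was 0.973 to 1.15 CPM with Vem and 1.7 to 2.07 CPM with vehicle. The part of these shifts in the sirtuin values was not tested.

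In cells that also received RSV, Vem raised SIRT2, SIRT5 and SIRT1. Relative to RSV alone, 3 of 7 were called higher and 0 lower, beside 11.3% and 13.4% of all genes. SIRT2 rose 1.43-fold (log2 0.52 ± 0.10 SE, adjusted p = 0.00113, edgeR quasi-likelihood), SIRT5 1.39-fold (0.47 ± 0.12, adjusted p = 0.00606) and SIRT1 1.34-fold (0.43 ± 0.12, adjusted p = 0.0142). The SIRT1 call was lost without RSV replicate 2 (log2 0.41, adjusted p = 0.0656) and without RSV+Vem replicate 2 (0.33, adjusted p = 0.121), and the SIRT5 call without RSV+Vem replicate 1 (0.42, adjusted p = 0.0748). With spike-in scaling SIRT2 was at 0.0037, SIRT5 at -0.037 and SIRT1 at -0.13. SIRT3 was at log2 0.25 (interval -0.042 to 0.55) and was not called in this setting.

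The difference between the responses to RSV with and without Vem was tested as an interaction, which is equally the difference between the responses to Vem with and without RSV. It was called for 2 of 7 sirtuins, beside 22.7% of all genes. For SIRT1 it was 0.71 ± 0.17 (SE) on the log2 scale (adjusted p = 0.00607, edgeR quasi-likelihood): the log2 change with Vem was -0.29 without RSV and 0.43 with it. This call held in each of the 8 fits that left out 1 library. For SIRT2 the interaction was -0.53 ± 0.14 (adjusted p = 0.0123): the rise with Vem was 1.04 without RSV and 0.52 with it. The SIRT2 call was lost without Vem replicate 2 (-0.43, adjusted p = 0.0803), RSV replicate 1 (-0.46, adjusted p = 0.0504) or RSV+Vem replicate 2 (-0.49, adjusted p = 0.0545). SIRT4 (-1.15, interval -2.20 to -0.11, adjusted p = 0.104) and SIRT5 (-0.35, interval -0.69 to -0.0090, adjusted p = 0.131) were not called, and for SIRT7 the interval was -0.55 to 0.35. Under spike-in scaling the interactions of SIRT1, at 0.806, and SIRT2, at -0.388, were not called. That scaling called the interaction higher for 8 and lower for 0 of the 16080 genes.

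TCDD lowered SIRT1. Relative to vehicle, 0 sirtuins were called higher and 1 lower, beside 4.72% and 2.01% of all genes. SIRT1 fell to 0.71 of its vehicle level (log2 -0.50 ± 0.12 SE, adjusted p = 0.0201, edgeR quasi-likelihood). Its value was between -0.55 and -0.45 whichever library was left out, but the call was lost without vehicle replicate 2 (adjusted p = 0.0949), TCDD replicate 1 (0.172) or TCDD replicate 2 (0.138). SIRT7 was at log2 -0.35 ± 0.16 (adjusted p = 0.196), both TCDD libraries lying below both vehicle libraries, and ranged from -0.48 without vehicle replicate 1 to -0.21 without vehicle replicate 2. The 5 remaining members were between -0.045 for SIRT6 and 0.45 for SIRT4 and were not called. With spike-in scaling SIRT1 was at log2 -1 and SIRT7 at -0.858, neither called, where the median of all genes was -0.512. That scaling called 2 of the 16080 genes higher and 8 lower.

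With RSV present, TCDD changed no sirtuin past the threshold: 0 were called in either direction by edgeR and 0 by DESeq2, and none had an unadjusted p below 0.05, beside 3.89% of all genes called higher and 2.28% lower. SIRT1 was at log2 -0.16 (interval -0.41 to 0.086) and SIRT7 at -0.18 (-0.48 to 0.13). These results are for TMM factors and the DESeq2 default. Under spike-in scaling SIRT1 and SIRT7 were called lower, at log2 -1.2 each (adjusted p = 0.0383 and 0.0397, edgeR quasi-likelihood). The median of all genes was then -1.02, with 6926 of the 16080 called lower and 1 higher. The interaction of RSV with TCDD was called for 0 sirtuins by edgeR and by DESeq2, and 0 had an unadjusted p below 0.05, beside 0.149% of all genes called. For SIRT1 it was 0.33 (interval -0.028 to 0.69, adjusted p = 0.691), so that a smaller effect of TCDD in the presence of RSV was not shown. The uncertain TCDD dose of RSV+TCDD bears on this interaction and on TCDD on top of RSV.

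**Figure D3:**
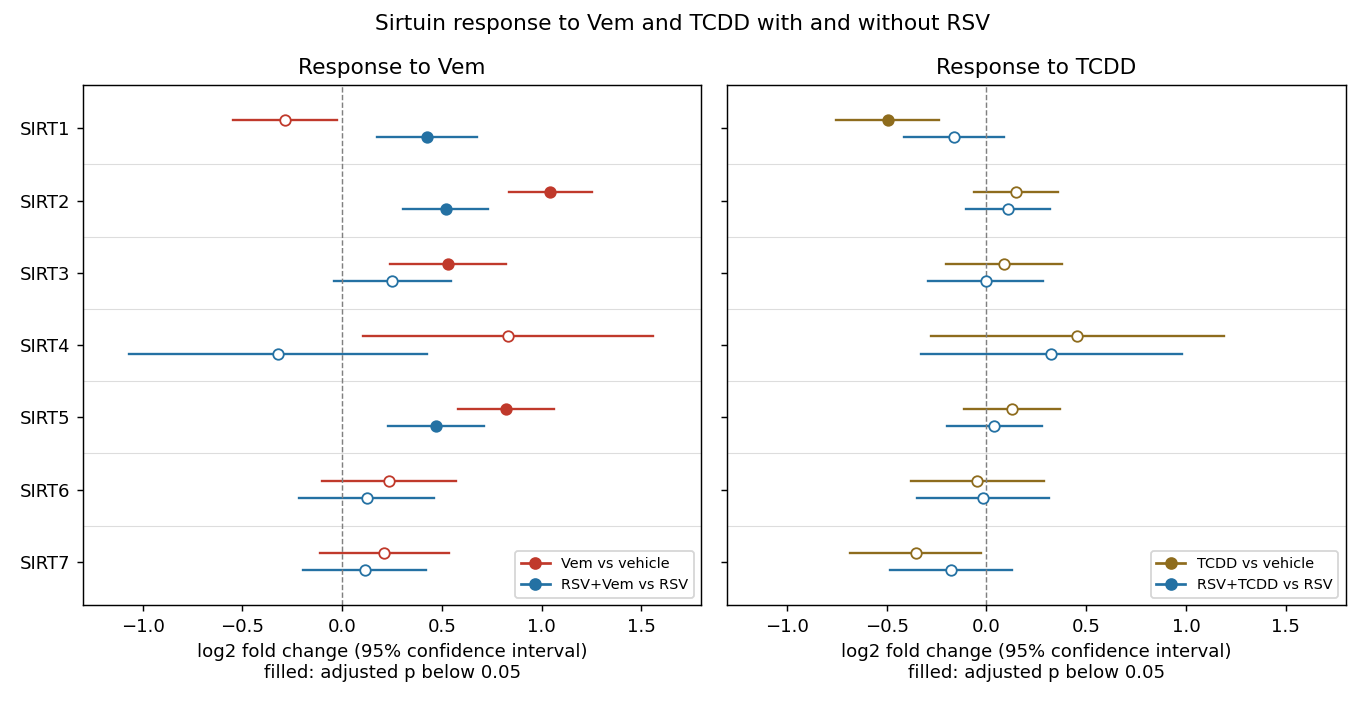
Log2 fold change (x axis) with Vem (left panel) and with TCDD (right panel) for each sirtuin gene, against vehicle and, in blue, on top of RSV; bars are 95% confidence intervals and filled points have an adjusted p below 0.05. The Vem values of SIRT1 lie on either side of 0, at -0.29 without RSV and 0.43 with it, and those of SIRT2 lie at 1.04 and 0.52.

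With RSV+Vem, 5 of 7 sirtuins were called higher than with vehicle and 0 lower, beside 24.1% and 24.7% of all genes, and 0 were called with spike-in scaling, where SIRT2, SIRT3 and SIRT5 were below 0. That scaling called 268 of the 16080 genes higher and 3409 lower. SIRT7 rose 1.87-fold (log2 0.90 ± 0.15 SE, adjusted p = 8.79e-05, edgeR quasi-likelihood), SIRT1 1.68-fold (0.75 ± 0.12, adjusted p = 6.14e-05), SIRT5 1.57-fold (0.65 ± 0.12, adjusted p = 0.000158), SIRT2 1.47-fold (0.56 ± 0.10, adjusted p = 0.000196) and SIRT3 1.37-fold (0.45 ± 0.14, adjusted p = 0.0125). The SIRT3 call was lost without RSV+Vem replicate 1 (0.27, adjusted p = 0.262) or vehicle replicate 2 (0.40, adjusted p = 0.0688). The median of the 7 log2 values was 0.56, that of all genes -0.0035. With RSV+TCDD, SIRT7 rose 1.53-fold (log2 0.61 ± 0.15, adjusted p = 0.0029) and SIRT4 2.03-fold (1.02 ± 0.33, adjusted p = 0.016), so 2 were called higher and 0 lower, beside 22.2% and 21.5% of all genes. The SIRT4 value depended on single libraries, at 1.62 without vehicle replicate 1, 0.55 without vehicle replicate 2 and 0.868 without RSV+TCDD replicate 1. DESeq2 did not call SIRT4 (adjusted p = 0.0518). With spike-in scaling SIRT4 was at -0.166 and SIRT7 at -0.563, neither called, where the median of all genes was -1.2. SIRT1, at log2 0.16 (interval -0.095 to 0.40), was not called in this comparison.

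Over the 12 libraries, log2 CPM of SIRT2 and SIRT5 had a Pearson r of 0.939, SIRT3 and SIRT5 0.919, and SIRT1 and SIRT7 0.842, while SIRT1 and SIRT2 had -0.069. The libraries share treatments in pairs, so these values restate that the first group followed Vem and the second RSV. Among 11090 other genes with a mean of at least 5 CPM, EZR, which links the membrane to actin, was like SIRT1 (r = 0.94). Most like SIRT2 were GDPD5 (0.99) and IDH3G (0.989), and most like SIRT7 were TJAP1 (0.98) and ODC1 (0.974), the rate-limiting enzyme of polyamine synthesis. SIRT5 was closest to CHSY3 and to ALDH2 (0.98 each), the mitochondrial aldehyde dehydrogenase. SIRT3 was closest to AL354822.1 (0.971) and TCEA2 (0.956), SIRT6 to ENTHD2 (0.943) and PPP1R16A (0.932), and SIRT4 to ZNF41 (0.843) and ST13 (0.829).

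The zinc-dependent deacetylases HDAC1 to HDAC11, which catalyse a similar reaction without NAD+, moved in both directions. Of all genes, as given above, 20.5% were called higher and 20.2% lower with RSV, and 25.5% and 26.9% with Vem, and the counts called in this and the following lists are to be read against these shares. With RSV, 2 of the 11 were called higher, HDAC5 (log2 0.60 ± 0.13 SE, adjusted p = 0.00121, edgeR quasi-likelihood) and HDAC1 (0.23 ± 0.084, adjusted p = 0.0333), and 3 lower, HDAC4 (-0.62 ± 0.13), HDAC2 (-0.53 ± 0.11) and HDAC8 (-0.51 ± 0.13). The HDAC1 call was lost without vehicle replicate 1 (0.16, adjusted p = 0.219) or RSV replicate 2 (0.17, adjusted p = 0.195), and HDAC5 was at 0.36, still called, without RSV replicate 1. With Vem, 4 were called higher, led by HDAC11 (0.91 ± 0.12) and HDAC6 (0.87 ± 0.11), the latter a tubulin deacetylase like SIRT2, and 3 lower, led by HDAC9 (-0.71 ± 0.22) and HDAC2 (-0.61 ± 0.11). The HDAC9 call was lost without Vem replicate 1 (-0.66, adjusted p = 0.0707). The median log2 value of the list was 0.10 with RSV and 0.027 with Vem, and the counts called were near the shares of all genes.

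Genes of NAD+ synthesis, which supply the sirtuin cosubstrate, were measured for 12 of 14 list members. With RSV 4 were called higher and 2 lower, beside 20.5% and 20.2% of all genes, and for Vem these counts were 7 and 2, beside 25.5% and 26.9%. NMNAT1, the nuclear enzyme that makes NAD+ from its mononucleotide, was at 33.1 ± 1.78 CPM with RSV and 33.7 ± 1.3 with Vem against 11.6 ± 0.657 with vehicle (log2 1.51 ± 0.12 and 1.54 ± 0.12). QPRT, of the pathway from tryptophan, rose with RSV (log2 1.01 ± 0.10) and with Vem (1.14 ± 0.10). NAMPT, the rate-limiting enzyme of salvage from nicotinamide, fell by 0.63 on the log2 scale with RSV and by 1.17 with Vem; its vehicle level was 133 ± 31.6 CPM, and the value with RSV was -0.37, still called, without vehicle replicate 1. Other consumers of NAD+ or nicotinamide were called higher in 7 and lower in 2 of 14 cases with RSV (all genes, 20.5% and 20.2%), and higher in 5 and lower in 5 with Vem (25.5% and 26.9%). Among those with 50 counts or more, the largest rises with RSV were in PARP9 (log2 1.00 ± 0.12), PARP10 (0.99 ± 0.18) and PARP14 (0.73 ± 0.11), which are ADP-ribosyltransferases, and PARP1, the main DNA damage enzyme of that family, fell by 0.34 with RSV and by 0.48 with Vem. CD38, an NAD+ glycohydrolase below that limit with a mean of 8.5 counts in the RSV libraries, was also called higher, at 0.469 ± 0.153 CPM against 0.0708 ± 0.0429 with vehicle (adjusted p = 0.00919).

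Regulators and partners of sirtuins were called higher in 4 and lower in 5 of 23 cases with RSV, near the 20.5% and 20.2% of all genes. DYRK3, a kinase reported to phosphorylate SIRT1, rose (log2 1.08 ± 0.12), and its relative DYRK1A fell by 0.83. With Vem 6 were higher and 11 lower, beside 25.5% and 26.9% of all genes: USP22, a deubiquitinase that stabilises SIRT1, rose (0.71 ± 0.086), and the acetyltransferase KAT2B (-1.64 ± 0.12) and the histone methyltransferase SUV39H1 (-1.17 ± 0.14) fell. Nuclear and cytosolic substrates were called higher in 9 and lower in 8 of 32 cases with RSV, and for Vem these counts were 16 and 8. The shares of all genes were 20.5% and 20.2% with RSV and 25.5% and 26.9% with Vem. NR1H3 (log2 1.36 ± 0.15), a sterol-sensing nuclear receptor, rose with RSV, and PPARGC1A (-1.18 ± 0.16), the coactivator of mitochondrial genes known as PGC-1α, had the largest fall. With Vem, ACSS2 (1.44 ± 0.10), an acetyl-CoA synthetase activated by SIRT1, had the largest rise, the SIRT2 substrate tubulin was split between TUBA1A (1.3 ± 0.10) and TUBA1B (-0.98 ± 0.095), and PER2 (-1.53 ± 0.21) had the largest fall.

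Among mitochondrial substrates of SIRT3, SIRT4 and SIRT5, 16 of 30 were called higher with Vem and 2 lower, beside 25.5% and 26.9% of all genes, with a median log2 value of 0.51 against -0.030 for all genes, led by ALDH2 (1.5 ± 0.086), ACADVL (0.90 ± 0.13) and PDHA1 (0.76 ± 0.083); TFAM fell (-0.92 ± 0.16). With RSV 6 were higher and 8 lower (all genes, 20.5% and 20.2%), ACADVL (1.17 ± 0.13) among the former and DLAT (-0.92 ± 0.12) and OPA1 (-0.77 ± 0.091) among the latter. On top of Vem, RSV was accompanied by 18 lower and 4 higher calls, beside 18.7% and 19.1% of all genes, with a median of -0.44 against 0.026 for all genes. Scaled to the spike-ins, the median of the list was -0.14 with Vem, where that of all genes was -0.68. For RSV on top of Vem it was -0.49, where that of all genes was -0.0157. Target genes of the FOXO factors, which SIRT1 deacetylates, were called higher in 13 and lower in 6 of 27 cases with RSV, beside 20.5% and 20.2% of all genes, and in 8 and 8 cases with Vem, beside 25.5% and 26.9%. SESN2 (2.05 ± 0.26) and GADD45A (1.59 ± 0.17) rose with RSV, as did TXNIP (2.51 ± 0.62), for which the vehicle libraries spread widely at 40.8 ± 39.8 CPM. CCND1 fell by 0.72 with RSV and by 2.13 with Vem. CDKN1B was also called lower with RSV (-0.958 ± 0.294), with vehicle at 79.3 ± 35.6 CPM, and was at -0.417 without vehicle replicate 1. The TXNIP value was 1.76 without vehicle replicate 1 and 4.21 without vehicle replicate 2, and the call was lost without RSV replicate 1 (adjusted p = 0.0726) or RSV replicate 2 (0.0612). With spike-in scaling and RSV, 4 FOXO targets were called higher and 1 lower, 1 mitochondrial substrate was called higher, and the other five lists had 0 calls, and with Vem 0 members of the 7 lists were called higher and between 1 and 9 per list lower. These counts stand beside 256 higher and 113 lower of the 16080 genes with RSV, and 195 and 3620 with Vem, under the same scaling.

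**Figure D4:**
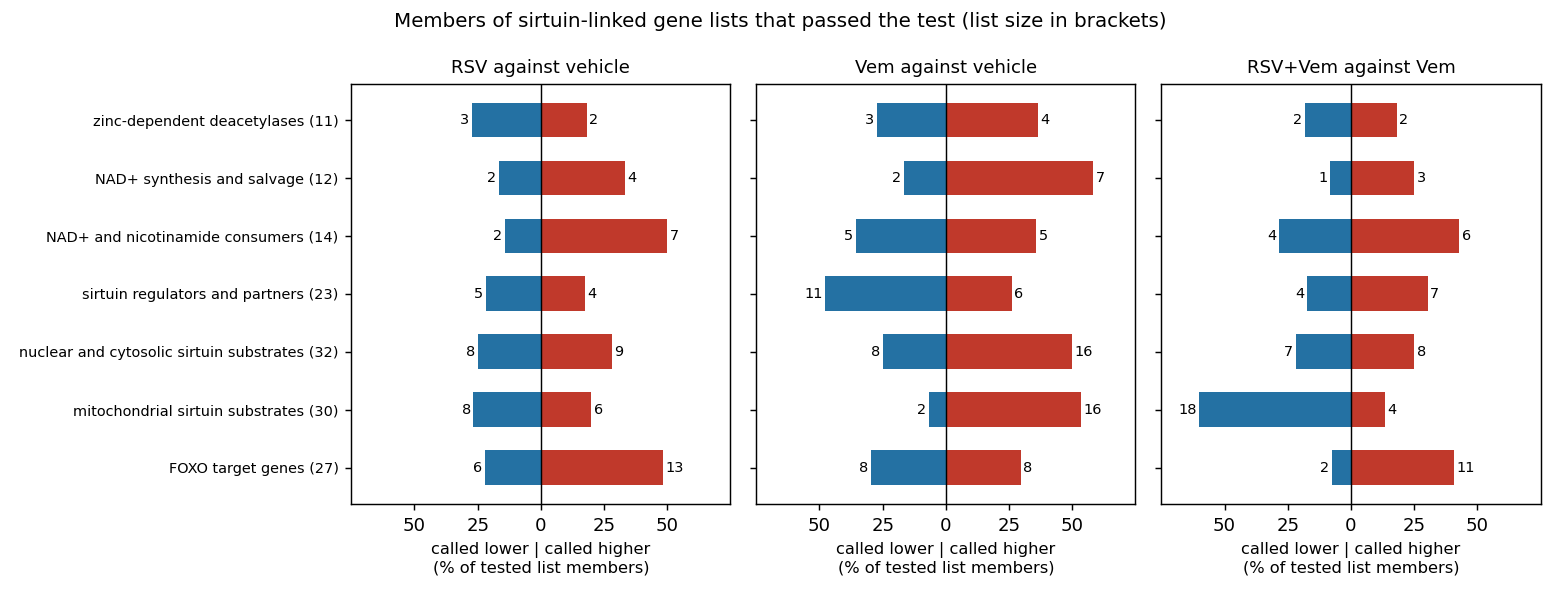
Share of tested members (x axis, percent) of 7 sirtuin-linked gene lists called higher (red, to the right) or lower (blue, to the left) for RSV against vehicle, Vem against vehicle and RSV on top of Vem; numbers at the bars are counts of genes. The shares of all genes are 20.5% and 20.2%, 25.5% and 26.9%, and 19.1% and 18.7%. Of the mitochondrial substrates, Vem has 16 higher and 2 lower, and RSV on top of Vem has 4 higher and 18 lower (with spike-in scaling, 0 against 1 and 1 against 0). Spike-in scaling calls 195 of the 16080 genes higher and 3620 lower with Vem, and 334 and 55 for RSV on top of Vem.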

How the data were processed

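RNA of 501Mel cells was sequenced in 12 libraries, 2 per treatment. The authors made stranded mRNA libraries, aligned read pairs with STAR 2.4.0a to hg19 and counted primary alignments per gene symbol with featureCounts of Subread 1.5.0-p3. The deposited values are these raw counts, and 96 rows are control sequences (92 ERCC spike-ins among them). The annotation release is not given in the sources used here. Loci and exon lengths are from GENCODE 44 lifted to GRCh37, and promoters from RefSeq on GRCh38.p14.

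Rows of control sequences (0.031% to 0.0936% of counts) were removed, and filterByExpr by group kept 16080 genes. TMM factors were computed, and a robust quasi-likelihood model of the 6 groups was fitted to the 12 libraries with edgeR 4.0.16 (R 4.3.3), with a common biological coefficient of variation of 0.0915. F tests were adjusted by Benjamini-Hochberg over all genes and called below 0.05. An exact permutation test of 2 against 2 libraries cannot go below p = 0.333, so p-values rest on this model. An interaction is the RSV effect with a ligand minus that without. Errors of levels are SDs over both libraries, and intervals are 95% and cover the fitted spread. PCR copies were not removed, so counting error is a lower limit.

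The members and gene lists were chosen with earlier results of these data known. Named from each list were up to 3 called genes with the largest rise and up to 3 with the largest fall with RSV and with Vem, given groups that do not overlap and 50 counts or more on average in the higher one, and the first of these are printed, apart from items not reported here. As alternatives, DESeq2 1.42.0, RLE factors, spike-in scaling, no filter, a minimum of 10 counts in all libraries, a block for replicate number, fits of the compared libraries alone and fits without each library in turn were run. The steps were tested on simulated data. The main model has no block, since over 15 pairs of groups the replicate differences correlated between -0.431 and 0.476. Python 3.11.15 with matplotlib 3.10.9 drew the figures.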

Additional observations from a re-analysis of the deposited data

Results flagged for a closer look

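The response of 2 sirtuins to RSV differed between cells with and without Vem by a test of the difference itself (edgeR quasi-likelihood interaction). For SIRT1 the interaction was 0.71 on the log2 scale, with RSV+Vem at 41.9 and 48 CPM against 33.7 and 33 with RSV, 20.3 and 23.6 with Vem and 25.7 and 27.6 with vehicle. For SIRT2 it was -0.525, with RSV+Vem at 83.7 and 79.2 CPM against 107 and 122 with Vem and 54.6 and 56.4 with vehicle. Of all genes tested, 22.7% had a called interaction, so the pattern is not particular to the sirtuins. The RSV+Vem libraries had the lowest RIN values, 8.7 and 8.6, and spike-in counts relative to gene counts of 389 and 904 on the scale of CPM, and the part of these in the 2 interactions was not tested.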

How the results depend on the processing

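RLE factors and a minimum of 10 counts per library left every count of called sirtuins within 1.5 times its reported value. Spike-in scaling left 0 called for RSV against vehicle, RSV on top of Vem, RSV on top of TCDD, Vem, TCDD, Vem on top of RSV, RSV+Vem against vehicle and the interaction of RSV with Vem, 2 for any difference (SIRT1 and SIRT7), 2 lower for TCDD on top of RSV (SIRT1 and SIRT7) and 5 lower for RSV+TCDD against vehicle. Of all 16080 genes, that scaling called 256 higher and 113 lower for RSV, and 334 and 55 for RSV on top of Vem. RSV on top of TCDD had 160 and 1752, Vem 195 and 3620, TCDD 2 and 8, and Vem on top of RSV 20 and 461. TCDD on top of RSV had 1 and 6926, RSV+Vem 268 and 3409 and RSV+TCDD 194 and 9968, the last pair against vehicle. The interaction of RSV with Vem had 8 and 0. The sirtuin counts are to be read against these. For RSV against vehicle 1 sirtuin, SIRT7, was called with no filter, with only the libraries compared and with DESeq2, and for RSV+TCDD against vehicle DESeq2 called 1. Leaving out single libraries gave 1 to 2 calls for RSV, 0 to 1 for TCDD, 1 to 2 for RSV+TCDD against vehicle and 1 to 3 for the interaction of RSV with Vem. Replicate numbers did not pair the libraries (r above 0.1 in 6 and below -0.1 in 5 of 15 pairs of groups), and the replicate block called 5 sirtuins with Vem in place of 3, adding SIRT1 (log2 -0.286, adjusted p = 0.0488) and SIRT4 (0.84, adjusted p = 0.0451), and changed no other count.

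Among sirtuin values with an unadjusted p below 0.05 and the other genes named, those that changed sign did so with spike-in scaling: SIRT1 was -0.0519 for RSV on top of TCDD and -0.131 for Vem on top of RSV, SIRT5 -0.0367 for the latter, SIRT3 -0.122 with Vem, SIRT2 -0.123, SIRT3 -0.204 and SIRT5 -0.0313 for RSV+Vem against vehicle, and SIRT4 -0.166 and SIRT7 -0.563 for RSV+TCDD against vehicle. With Vem, HDAC8 was -0.273, PARP10 -0.0412, KAT5 -0.0614 and CREBBP -0.111. The cause was not tested. Of 77 pairs of sirtuin and comparison, 49 had an unadjusted p of 0.05 or more. Of these, SIRT1, SIRT2, SIRT3, SIRT5 and SIRT6 for RSV+TCDD against vehicle were above 0 as reported and called lower, at -0.978 to -1.05, with spike-in scaling. So were 9968 of the 16080 genes in this comparison. Of the 49, 19 changed sign in some alternative other than spike-in scaling, 30 with it, and 8 were called in some alternative. SIRT4, at 19 to 63 counts, is the member that depth limits most.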
